A study of Arabidopsis thaliana with 6 samples.

Results

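The 3 arrays with the codes CVM, CVH and CVL were compared with each other, out of 6 arrays in a study of how Arabidopsis thaliana acclimates to light intensity. They are the arrays whose code begins with CV, and they differ in its last letter. Each code had 1 array, so sizes of differences are given with no replicate error and no test. All 3 held RNA from unshaded rosette leaves of the accession Ws-2 at growth stage 3.90, with no genetic modification, hybridised to an Affymetrix array of 8297 probe sets. The labels do not say what the letters stand for, so no light level is attached to CVM, CVH or CVL. The growth record of CVL, like that of CLL, names a dark period of 16 hours at 15 °C, and those of CVM and CVH name neither. Nothing says how many plants were pooled for an array. The ending of the code, the plants and the handling of an array cannot be told apart. The other 3 arrays (CLM, CLH and CLL) share the endings, and they are set beside the CV arrays near the end.

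Leaves that acclimate to a change of light are known to adjust their light-harvesting antenna, the synthesis of chlorophyll, the storage and transport of carbohydrate, and the proteins that protect plastids from excess light. Chlorophyll synthesis in angiosperms passes through protochlorophyllide oxidoreductase, an enzyme that needs light to work, and sugar made in the day is stored as starch through ADP-glucose pyrophosphorylase. Expansins loosen the cell wall during growth, and dehydrins and other late embryogenesis abundant (LEA) proteins accumulate in cold and drought. Members of all these groups were on the array.

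The values are signal intensities on a linear scale, and a difference between arrays is given as log2(signal + 3.9), so that 1 on this scale is a 2-fold difference for a bright probe set and a larger one for a dim probe set. The M change is CVM minus CVL, and the H change is CVH minus CVL. Of the 8247 probe sets that are not controls, 4325 had a mean signal of 20 or more over the CV arrays and were kept. The median signal of all probe sets was 20.0 on CVM, 25.0 on CVH and 21.9 on CVL. The scanner background averaged 56.56 on CVM, 68.77 on CVH and 73.52 on CVL, and the scanner noise 1.50, 2.09 and 2.17. The array records list 13 outlier cells on CVM, 35 on CVH and 12 on CVL. Their part in the differences below was not tested. Among the kept probe sets, 1790 were paired with 1 gene, which gave 1701 genes, and 1356 of these are known here by their locus alone. The other 2535 kept probe sets are unnamed here.

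The labelled tissue could be checked on few markers. Of 24 mesophyll markers 3 were on the array under a name, and their signals summed to 22193.1 on CVM, 24514.5 on CVH and 19588.7 on CVL. LHCB4.1 and RCA followed this order, while PRK ran the other way, with 2688.4 on CVM, 2423.8 on CVH and 2953.2 on CVL. Of 15 flower and pollen markers 2 were found, TUA1 and ACT12, with sums of 114.6, 90.1 and 171.7 on the same arrays. ACT12 was dim, with 16.3, 4.7 and 11.8, and was higher on CVM than on CVL. None of the 14 epidermal and guard cell, 13 vascular, 13 root or 15 seed markers was found under its name, so the presence of those cells was not tested. In whole leaves, fewer cells of a type and less RNA per cell cannot be told apart. The 2 controls for RNA integrity did not rank the arrays alike. The glyceraldehyde 3-phosphate dehydrogenase control had a 3-prime signal of 3.39 times its 5-prime signal on CVM, 5.50 times on CVH and 3.20 times on CVL. For the ubiquitin control the ratio was 3.1 on CVM, 2.3 on CVH and 2.5 on CVL, so CVH was the highest array by the one and the lowest by the other. The 9 bacterial and phage spike-in controls, which are meant to be added in equal amounts, had a median M change of 0.24 (from -0.02 to 0.79) and a median H change of 0.52 (from 0.26 to 0.91). The part of RNA integrity and of the spike-in shift in the differences below was not tested.

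CVH lay farther from CVL than CVM did. An M change of 1 or more in size was seen in 204 of the 4325 kept probe sets (4.72%), of which 83 (1.92%) were higher and 121 (2.8%) lower on CVM. An H change of that size was seen in 429 probe sets (9.92%), of which 228 (5.27%) were higher and 201 (4.65%) lower on CVH. Between CVH and CVM themselves 386 probe sets (8.92%) differed by that much, 217 (5.02%) higher and 169 (3.91%) lower on CVH. The median size of a change was 0.27 for M, 0.36 for H and 0.36 for CVH minus CVM.

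The split into higher and lower probe sets depended on the scaling of the arrays. The median change over the kept probe sets was -0.04 for M, 0.08 for H and 0.14 for CVH minus CVM. With each array centred on its median, the counts were 114 higher and 87 lower for M and 124 higher and 243 lower for CVH minus CVM. After quantile normalization CVH minus CVM gave 126 higher and 217 lower. With the median change of the spike-ins taken off, the counts were 47 higher and 261 lower for M, 66 and 697 for H, and 85 and 320 for CVH minus CVM. Which side held more probe sets thus depended on the scaling, and for H and CVH minus CVM also on the offset and the filter. With an offset of 16 the counts were 50 higher and 78 lower for M, 135 and 137 for H, and 101 and 104 for CVH minus CVM. With a mean signal of 50 or more they were 44 and 78, 111 and 129, and 83 and 107.

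A change of 1 or more the same way on both arrays was seen in 97 probe sets (2.24%), 53 higher (1.23%) and 44 lower (1.02%) than on CVL, or 22 and 150 with the spike-in change taken off. The split was 29 higher and 34 lower with an offset of 16, and 26 and 36 with a mean signal of 50 or more. The M and H changes are both taken from the same CVL array, so a deviation of that array alone would appear in both. The difference was farther from CVL on CVH by 0.5 or more in 21 of the 53 higher probe sets and on CVM in 2, and for the other 30 the changes lay within 0.5 of each other. Of the 44 lower probe sets, CVH was farther in 15, CVM in 5, and 24 lay within 0.5. The median M and H changes were 1.36 and 1.74 in the higher set and -1.34 and -1.77 in the lower set. A further 197 probe sets (4.55%) stood apart on CVH alone, with an H change of 1 or more and an M change under 0.5, and 49 (1.13%) stood apart on CVM alone. A single probe set (0.0231%), unnamed here, passed 1 in opposite directions. Another 191 lay between these classes, and 3790 passed 1 on neither array.

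**Figure D1:**
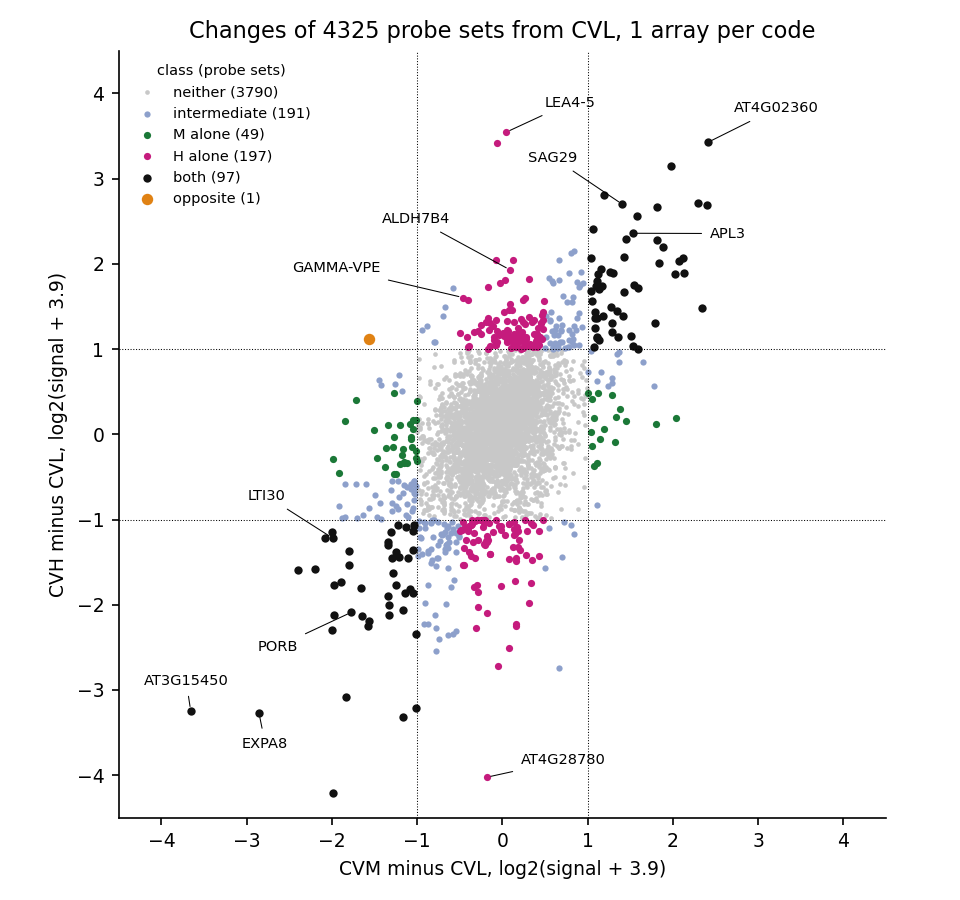
Each point is 1 of the 4325 kept probe sets, with its change from CVL on CVM (x axis) and on CVH (y axis), both as log2(signal + 3.9). Black points passed 1 (dotted lines) the same way on both arrays, magenta points on CVH alone and green points on CVM alone. The magenta points (197) outnumber the green (49), and both axes share the CVL array.

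Among genes, counted with 1 probe set each, 31 (1.82%) differed from CVL the same way on both arrays, 18 (1.06%) higher and 13 (0.764%) lower. Of the 1701 genes, 69 (4.06%) passed 1 for M, 30 (1.76%) upward and 39 (2.29%) downward. For H 145 (8.52%) passed it, 77 (4.53%) upward and 68 (4.0%) downward, and for CVH minus CVM 158 (9.29%), 87 (5.11%) upward and 71 (4.17%) downward. Most of the probe sets that stood farthest out had no name: of the 20 with the highest H change 8 had 1 gene, and of the 20 lowest 6. For M these numbers were 4 and 6. The named genes therefore cover a minority of what differed.

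The genes farthest below CVL on both arrays belonged to several processes. AT3G15450, whose product is not described in the annotation used, had signals of 5.4 on CVM and 8.5 on CVH, against 113.4 on CVL, which gave changes of -3.66 and -3.24. EXPA8, an alpha-expansin of the cell wall, had 67.7 on CVM and 49.6 on CVH, against 513.9 on CVL (changes of -2.85 and -3.27). PORB, a light-dependent protochlorophyllide oxidoreductase, had 429.3 on CVM and 343.9 on CVH, against 1475.6 on CVL (-1.77 and -2.09). In all 3 genes the CVM and CVH signals lay near each other and CVL stood well above them. PORB and EXPA8 were bright enough on every array that the offset of 3.9 hardly bears on these sizes.

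LTI30, a dehydrin first described as induced by low temperature, had 57.3 on CVM and 100.7 on CVH, against 239.4 on CVL (-1.99 and -1.22). The locus AT4G32340 had 179.2 and 216.0, against 634.5 on CVL (-1.80 and -1.54), and AT1G49500 had 424.1 and 287.9, against 1082.1 on CVL (-1.34 and -1.90). SKU5, a cell surface protein that directs the growth of roots, was dimmer, with 39.2 and 30.9, against 85.2 on CVL (-1.05 and -1.36). CVM was the lowest array for LTI30 and AT4G32340, and CVH for AT1G49500 and SKU5. The other 5 named genes on this side were AT2G20670, AT1G75800, AT1G78830, AT1G22690 and AT4G19110, with M changes between -1.66 and -1.09 and H changes between -2.06 and -1.26.

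The genes farthest above CVL on both arrays included 2 of carbohydrate handling. APL3, a large subunit of the ADP-glucose pyrophosphorylase of starch synthesis, had signals of 106.5 on CVM and 191.5 on CVH, against 34.2 on CVL, which gave changes of 1.53 and 2.36. SAG29, also named SWEET15, a sugar transporter of the plasma membrane that is known from senescing leaves, had 46.2 and 118.9, against 15.0 on CVL (1.41 and 2.70). In both genes CVH was the highest array and CVM lay between CVH and CVL. The remaining named genes on this side are mostly known by locus.

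AT4G02360 had 23.8 on CVM and 52.0 on CVH, against 1.3 on CVL (2.41 and 3.43). Its CVL signal was under the offset of 3.9, so the size of its change is uncertain. AT2G41410 had 345.3 and 547.1, against 126.0 on CVL (1.43 and 2.08), and its second probe set gave 0.59 and 1.78. AT4G27280 had 50.2 and 55.1, against 14.0 on CVL (1.60 and 1.72), and AT2G12900, which encodes the leucine zipper transcription factor bZIP33, had 63.0 and 73.6, against 25.6 on CVL (1.18 and 1.39). The signals on CVM and CVH were close to each other in these last 2 genes, in AT4G38020 (43.6 and 40.5, against 15.5 on CVL), in AT4G15240 (29.0 and 28.5, against 11.1) and in AT1G61890 (129.5 and 132.8, against 57.9). AT1G23680 (168.3 and 288.2, against 75.1 on CVL) and AT2G22510 (37.6 and 58.9, against 13.0) were highest on CVH. AT2G18100 was also higher by the probe set used (1.26 and 1.90), but its dim second probe set had changes of -0.67 and -0.56.

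**Figure D2:**
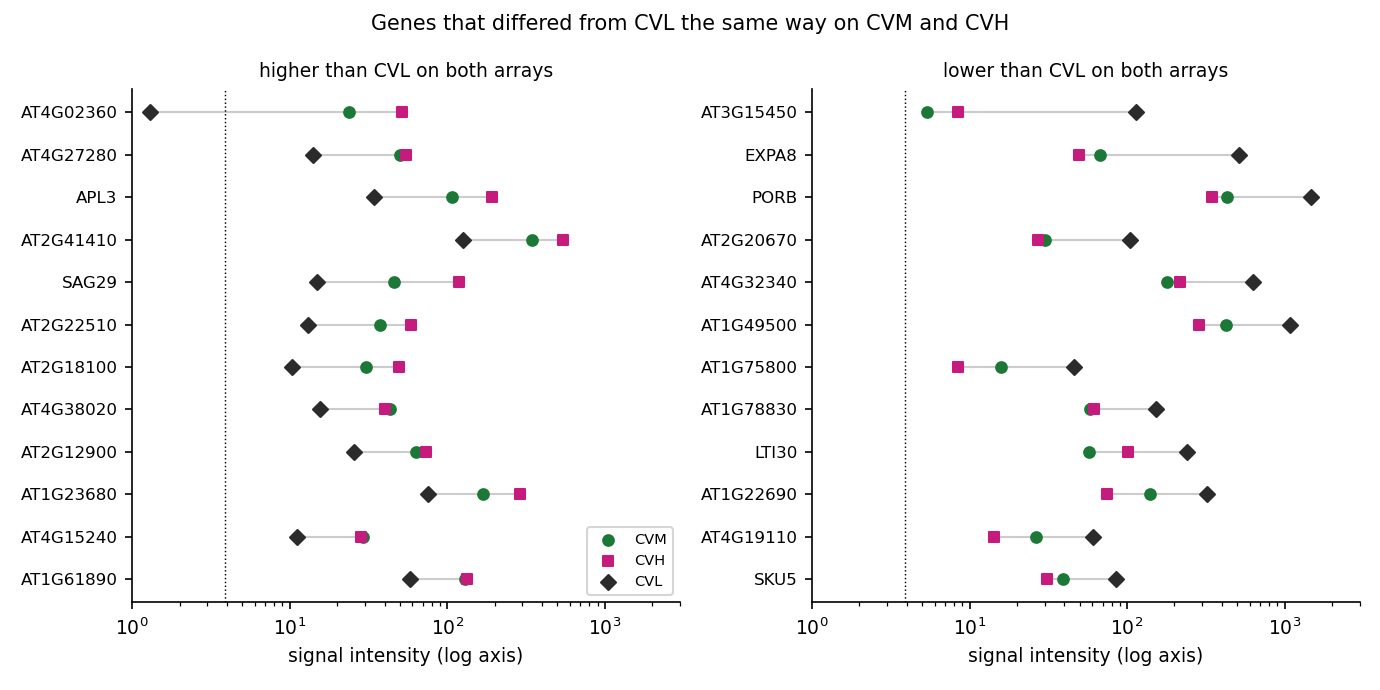
Signal intensity (log axis) on CVM, CVH and CVL of the 12 named genes per direction whose smaller change was largest, higher than CVL on the left and lower on the right. The dotted line marks the offset of 3.9. AT4G02360 on CVL (1.3) is the one point left of the line, and CVM and CVH lie on the same side of CVL in every gene shown, which is how the genes were chosen.

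The named genes nearest the limit of 1 were AT2G27420 (66.5 on CVM and 46.1 on CVH, against 20.5 on CVL, changes of 1.53 and 1.04) just inside it and CSLA01, a cellulose synthase-like gene of the mannan synthase family (930.5 and 706.6, against 358.9, changes of 1.36 and 0.97), just outside. On the lower side EXPB1, a beta-expansin, was just inside (139.6 and 130.7, against 292.0, changes of -1.04 and -1.14) and AT2G43760 just outside (38.6 and 53.4, against 110.1, changes of -1.42 and -0.99). Genes on either side of the limit thus differed little in the size of their changes. Dim probe sets were more frequent among those past it: 38 of the 97 (39.2%) had a signal under 20 on at least 1 array, against 526 of all 4325 (12.2%), and a probe set with such a signal had to differ in order to reach a mean of 20. The same held for 69 of the 197 (35.0%) apart on CVH alone and 18 of the 49 (36.7%) apart on CVM alone.

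On CVH alone, 111 probe sets (2.57%) were higher and 86 (1.99%) lower than on CVL. This split was 76 and 107 after quantile normalization, 80 and 108 after centring, and 19 and 302 with the spike-in change taken off. LEA4-5, a LEA protein of drying tissues, had signals of 6.0 on CVM and 108.1 on CVH, against 5.7 on CVL, an H change of 3.54 beside an M change of 0.04. ALDH7B4, an aldehyde dehydrogenase known from drought and salt stress, had 136.4 and 498.7, against 128.0 on CVL (0.09 and 1.93). GAMMA-VPE, a cysteine protease that matures proteins in the vacuole, had 357.3 and 1509.9, against 493.8 on CVL (-0.46 and 1.60). For these genes CVM and CVL were similar and CVH stood alone.

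The other named genes higher on CVH alone were AT4G22820 (123.2 and 319.4, against 113.8 on CVL), AT4G27900 (24.6 and 55.8, against 19.1) and AT1G54010, listed as a GDSL-like lipase (27.1 and 86.1, against 31.0). On the lower side the CVH signals of 3 of the 6 named genes were under the offset. AT4G28780 had 77.8 on CVM and 1.8 on CVH, against 88.8 on CVL (-0.18 and -4.02), and CSLC5, a cellulose synthase-like glucan synthase, had 32.3 and 3.0, against 28.4 on CVL (0.16 and -2.23). The third was AT2G46230 (33.3 and 3.7, against 26.1 on CVL), and the sizes of these 3 are uncertain. AT4G36500 was above the offset on every array, with 113.3 and 27.3, against 129.1 on CVL (-0.18 and -2.09).

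On CVM alone, 17 probe sets (0.393%) were higher and 32 (0.74%) lower than on CVL. This split was 22 and 25 after quantile normalization, 33 and 19 after centring, and 14 and 43 with the spike-in change taken off. AT1G10690 had signals of 58.3 on CVM and 13.3 on CVH, against 11.2 on CVL (2.04 and 0.19). AT3G41768, annotated as a ribosomal RNA gene, had 290.3 and 88.4, against 80.7 on CVL (1.80 and 0.13). A separate control for 25S ribosomal RNA ran the same way, with 363.6, 141.2 and 114.7 on CVM, CVH and CVL. Ribosomal RNA has no regular poly(A) tail and labelling was primed on poly(A), so these signals are not a level of the rRNA. ATA20, listed as anther 20, was lower on CVM, with 7.3 and 32.5, against 40.5 on CVL (-1.99 and -0.29), and AT3G54880 had 4.8 and 33.8, against 24.6 on CVL (-1.71 and 0.40). The remaining 8 named genes of this class had M changes from 1.08 to 1.34 on the higher side and from -1.84 to -1.20 on the lower side.

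**Figure D3:**
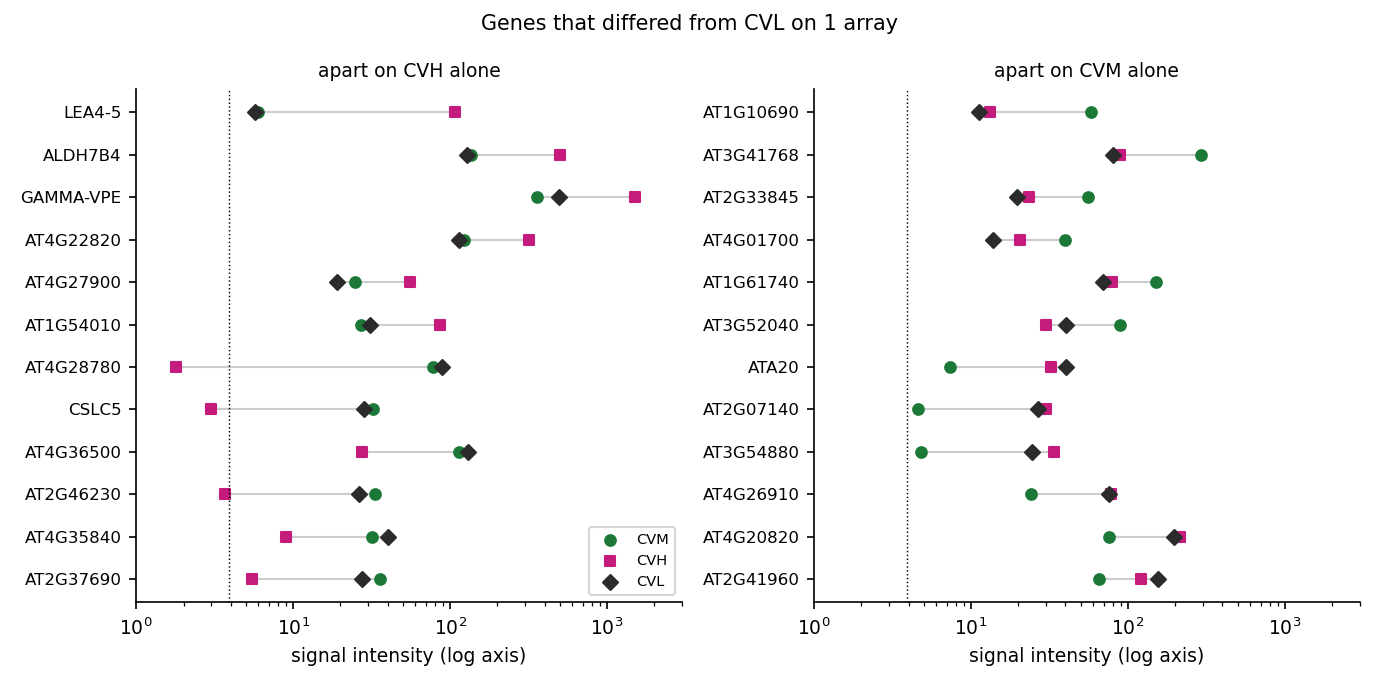
Signal intensity (log axis) on CVM, CVH and CVL of the 6 named genes per direction that stood apart from CVL on CVH alone (left) and on CVM alone (right). CVM and CVL lie together on the left, and CVH and CVL on the right, by the choice of genes. AT4G28780, CSLC5 and AT2G46230 on CVH fall left of the dotted line at the offset of 3.9.

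CVH and CVM can be compared without CVL. LEA4-5 headed the higher side with 3.50, followed by ARL, an ARGOS-like regulator of organ size, with signals of 150.6 on CVH and 27.5 on CVM and a difference of 2.30. CVL lay between them for ARL, at 43.0. AT1G30640 (45.8 on CVH against 7.1 on CVM), AT2G39430 (83.2 against 15.5) and AT3G54880 (33.8 against 4.8) followed, with differences from 2.12 to 2.18. Lower on CVH were AT4G28780 (-3.84), AT2G43590 (1.5 against 53.3 on CVM, -3.40), CSLC5 (-2.39), AT2G46230 (-2.29) and NRPB7, a subunit of RNA polymerase II (6.5 against 42.1, -2.15). The second probe set of AT2G43590 did not share the difference, with H and M changes of -0.10 and -0.03, and 4 of these 5 genes had CVH signals under the offset. The smallest CVM signals among the 5 higher genes were 4.8 for AT3G54880 and 6.0 for LEA4-5. Both were close to the offset, so the sizes of these differences are uncertain.

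Groups of genes with related functions were described by their medians, beside medians over all 1701 genes of -0.06 for M and 0.09 for H. Of the 44 group medians, quantile normalization turned the sign of 4, centring the arrays that of 6, and taking off the spike-in change that of 21, since it lowered every M median by 0.24 and every H median by 0.52. Over all 1701 genes 69 (4.06%) had an M change and 145 (8.52%) an H change of 1 or more in size. On the values as deposited 747 of the 1701 were above CVL on CVM and 949 below it. On CVH 966 were above CVL and 731 below it. No group was tested.

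Among 13 genes of thylakoid and photosystem proteins the median was 0.15 for M and 0.33 for H, but -0.0013 and 0.0 after quantile normalization and -0.09 and -0.19 with the spike-in change taken off. On the values as deposited 8 of the 13 were above CVL on CVM and 10 on CVH, and 1 passed 1. Centring gave 11 and 10 of the 13, quantile normalization 5 and 6, and the spike-in scaling 5 and 3. The gene past 1 was LHCB4.3 (or LHCB8), which encodes a minor antenna protein beside photosystem II, with 1316.0 on CVM and 1875.5 on CVH, against 632.0 on CVL (1.05 and 1.56). The antenna gene LHB1B2 (6675.9 and 7526.2, against 4924.8 on CVL), the photosystem I subunit gene PSAE-1 (9774.8 and 11092.0, against 7547.8) and the photosystem II subunit gene PSBW (10968.0 and 12180.6, against 8617.8) had H changes of 0.61, 0.56 and 0.50. These were among the brightest probe sets on the arrays. Other probe sets of the last 3 genes gave smaller H changes, of 0.07 for LHB1B2, 0.27 and 0.12 for PSAE-1 and 0.31 for PSBW. The 4 genes of carbon fixation and photorespiration had a median M change of -0.01 and a median H change of 0.04, and the H median was -0.13 after quantile normalization and -0.48 with the spike-in change taken off. RCA, the activase of Rubisco, was on the higher side as deposited (0.32 and 0.47), but its changes were 0.06 and -0.04 after quantile normalization and 0.07 and -0.05 with the spike-in change taken off. On the values as deposited PRK, phosphoribulokinase, was on the lower side (-0.14 and -0.28).

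The 6 genes of pigment synthesis had a median of -0.32 for both changes, and the sign was the same under each scaling tried. On CVM 5 of them were below CVL (4 after centring, 6 with the spike-in change taken off), and on CVH all 6 (5 after quantile normalization). PORB led the group and was the one that passed 1. HEME2, uroporphyrinogen decarboxylase of the tetrapyrrole pathway, had 253.7 on CVM and 174.6 on CVH, against 329.2 on CVL (-0.37 and -0.90). GSA1, which makes the tetrapyrrole precursor aminolevulinate, had 162.3 and 109.7, against 162.8 on CVL (an M change of -0.00 and an H change of -0.55), and the carotenoid isomerase gene Z-ISO had 94.6 and 131.5, against 134.9 on CVL (-0.49 and -0.04).

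Among 4 plastid stress protein genes, those for 2 fibrillins, the lipid-binding proteins of plastoglobules, were above CVL on both arrays. FIB had 2694.1 on CVM and 3433.0 on CVH, against 1760.8 on CVL (0.61 and 0.96). AT4G22240, listed as fibrillin 1b, had 613.0 and 945.8, against 407.6 on CVL (0.58 and 1.21). EX1, the EXECUTER1 protein of singlet oxygen signalling, was below CVL (34.0 and 40.8, against 55.2, changes of -0.64 and -0.40). Of 13 antioxidant and thiol enzyme genes, 9 were below CVL on CVM and 8 on CVH, beside 949 and 731 of all 1701. Their medians were -0.30 and -0.26, and the sign of each was the same under each scaling tried. GR, a plastid glutathione reductase, had 107.7 and 150.5, against 253.8 on CVL (-1.21 and -0.74). The methionine sulfoxide reductase gene MSRB6 had 49.4 and 27.4, against 87.7 on CVL (-0.78 and -1.55), and MSRB5 153.6 and 164.8, against 290.2 (-0.90 and -0.80). TAPX, the thylakoid ascorbate peroxidase, had 339.1 and 263.2, against 417.1 on CVL (-0.30 and -0.66), and its second probe set gave -0.46 and -0.58. The 4 members above CVL on CVM were GR1 (0.71 and 0.13), GrxC5 (0.58 and 0.19), SAPX (0.58 and -0.23) and TO1 (0.24 and 0.43).

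The 14 cold, drought and LEA genes did not run one way, with 5 above CVL on CVM, 7 above it on CVH, and medians of -0.08 and 0.17. Beside LTI30, COR47, another dehydrin, had 582.8 on CVM and 816.4 on CVH, against 1313.8 on CVL (-1.17 and -0.68), and its second probe set gave -1.88 and -0.98. COR15B, a plastid protein of cold acclimation, had 3278.6 and 1985.4, against 4786.0 on CVL (-0.55 and -1.27). LEA4-5, as given above, stood at the other end of the group with an H change of 3.54, or 2.52 with an offset of 16.

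In the 9 genes of starch, sucrose and sugar transport, APL3 and SAG29 were past 1 on both arrays, and no other member passed 1 on either. The vacuolar sugar carrier gene TMT2 was above CVL (560.9 on CVM and 663.1 on CVH, against 426.9, changes of 0.39 and 0.63), and the vacuolar fructose transporter gene SWEET17 was below it (73.0 and 48.8, against 86.1, changes of -0.23 and -0.77). The group medians were -0.17 and 0.28, and the H median became -0.24 with the spike-in change taken off.

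All 6 ATG8 genes, whose products coat the membranes of autophagosomes, had higher signals on CVH than on CVM, by a median of 0.64, and 5 of the 6 did after centring, after quantile normalization and with the spike-in change taken off. Over all genes 1062 of 1701 were higher on CVH than on CVM, by a median of 0.16. Relative to CVL the median was -0.00 for M and 0.58 for H, and with the spike-in change taken off it was -0.24 and 0.06. ATG8D had 65.0 on CVM and 123.2 on CVH, against 55.0 on CVL (0.23 and 1.11), and ATG8B had 25.6 and 28.9, against 14.0 on CVL (0.72 and 0.87). ATG8E was below CVL on both arrays, with 51.4 and 77.8, against 119.6 (-1.16 and -0.60). Of 10 genes for vacuolar and secreted proteases, 9 were above CVL on CVH, beside 966 of all 1701, with a median of 0.45. With the spike-in change taken off 5 of the 10 were above CVL, with a median of -0.07. Besides GAMMA-VPE, the related BETA-VPE had 27.8 on CVM and 62.9 on CVH, against 22.8 on CVL (0.25 and 1.32). The serine carboxypeptidase-like gene scpl28 had 13.3 and 35.3, against 11.8 (0.13 and 1.32), and reached the mean of 20 through CVH alone.

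The 4 auxin genes were all above CVL on CVH, with a median of 0.89, and 3 of the 4 were so with the spike-in change taken off (0.37). IAGLU, an auxin glucosyltransferase, had 196.9 on CVM and 426.3 on CVH, against 187.9 on CVL (0.07 and 1.17). The auxin response repressors IAA20 (104.9 and 127.9, against 81.6) and IAA18 (43.6 and 58.7, against 40.4) had H changes of 0.62 and 0.50. Other probe sets of IAA20 lay under the offset on CVM, CVH and CVL (3.6, 3.4 and 1.8, and 1.0, 3.1 and 0.9). Whether the bright one measures IAA20 alone was not tested. ARL completes this group. Among the 3 glutathione transferases, GSTF3 had 56.4 and 114.2, against 42.6 on CVL (0.37 and 1.34), and GSTU18 had 117.2 and 102.8, against 192.5 (-0.70 and -0.88). The GSTF3 probe set carries the suffix of a family probe set, so its signal may include related transferases.

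Of 19 cell wall genes, 5 passed 1 on CVM (3 higher, 2 lower), beside 4.06% of all genes, and 3 on CVH (all lower), beside 8.52% of all genes. The group medians were 0.13 and -0.14. EXPA8, CSLA01 and EXPB1 are given above, and the second probe set of EXPB1 gave -0.90 and -1.04. The trichome birefringence-like gene TBL26 (1340.2 on CVM and 662.7 on CVH, against 651.6 on CVL) and the endoglucanase gene GH9B8 (83.3 and 34.3, against 38.1) were above CVL on CVM alone and were picked out after their values were seen. The 10 genes of histones, tubulins and replication had medians of -0.04 and -0.25. TUB5, a beta-tubulin, had 113.5 and 114.6, against 220.0 on CVL (-0.93 and -0.92), and PRL, a replication licensing protein of the MCM complex, had 136.5 and 73.5, against 160.4 (-0.23 and -1.09).

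The 19 transcription factor genes had a median of -0.14 for M and 0.32 for H, and the H median became -0.20 with the spike-in change taken off. After AT2G12900 the WRKY gene ZAP1 (139.7 on CVM and 168.0 on CVH, against 99.7 on CVL) had the next highest pair of changes (0.47 and 0.73), which its second probe set did not share (-0.20 and 0.16). In the 6 defence genes the medians were 0.16 and -0.00. CHI, a chitinase, had 34.4 and 64.1, against 15.9 on CVL (0.95 and 1.78), the lectin-like gene JAL23 had 33.1 and 40.6, against 19.1 (0.69 and 0.95), and LCR69, a defensin-like gene, had 367.2 and 396.5, against 653.1 (-0.82 and -0.71). These genes differed in direction, which a median near 0 does not show. PUB19, a ubiquitin ligase known from drought responses, had 55.7 and 106.1, against 38.0 on CVL (0.51 and 1.39), and was the one of 8 ubiquitin pathway genes past 1.

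The remaining groups had few or no members past 1. No gene passed it among the 7 vacuolar proton pump subunits (medians of 0.02 and 0.13), the 7 of sulphur and methyl group metabolism (0.02 and -0.00), the 7 of mitochondrial respiration (0.07 and 0.22) or the 13 of membrane traffic and secretion (-0.11 and -0.04). In the sulphur group SAMDC, which serves polyamine synthesis, had changes of -0.49 and -0.10 by the probe set used and of -1.35 and -1.30 by a dimmer one. The nearest to 1 in the respiratory group was CYTC-2, a cytochrome c (57.9 on CVM and 44.7 on CVH, against 27.3 on CVL, changes of 0.99 and 0.64). The 13 UDP-glycosyltransferases had IAGLU past 1 upward and UGT74D1 past 1 downward, both on CVH. Of the 4 aldehyde dehydrogenases ALDH7B4 was past 1.

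**Figure D4:**
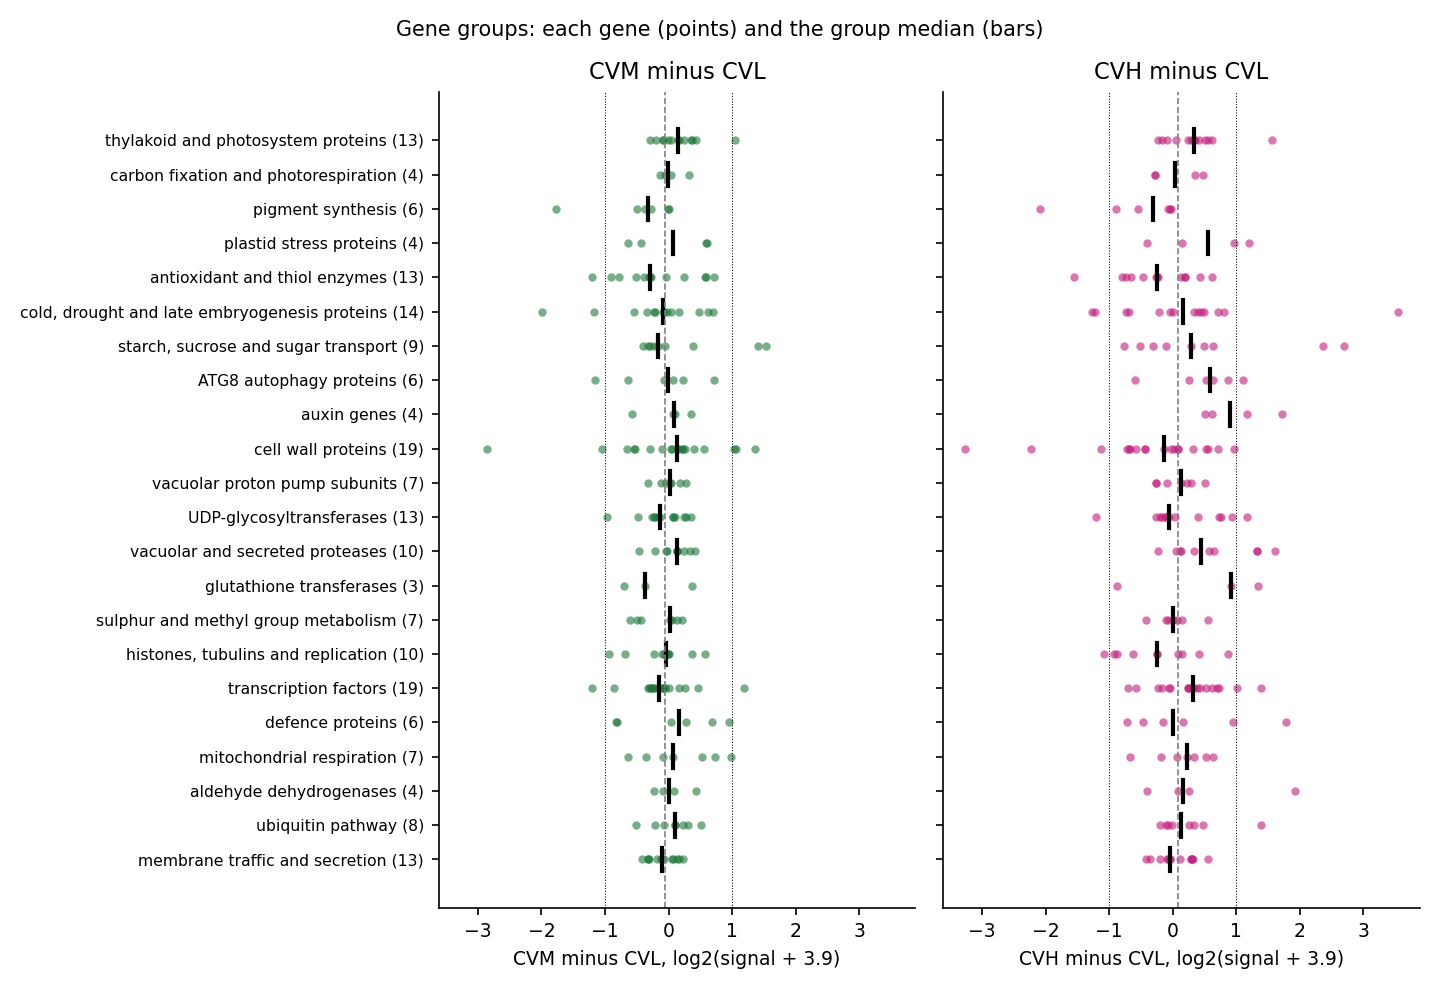
Changes from CVL on CVM (left) and on CVH (right) for each gene of the 22 groups, as log2(signal + 3.9). Each point is a gene, the black bar is the group median, the dashed line is the median of all 1701 genes and the dotted lines mark 1 and -1. Auxin genes have the highest group median on CVH after the 3 glutathione transferases, and the median of pigment synthesis lies left of the dashed line in both panels.

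The endings were set beside the same endings of CL, which share no array with CV and were not used to sort the probe sets into classes. Both changes in CL are taken from the same CLL array, so a deviation of that array alone would appear in both. On the values as deposited, the 44 probe sets that were lower on CVM and CVH than on CVL mostly lay the other way in CL. In CLM 42 of them (95.5%) were higher than in CLL, against 46.3% of all kept probe sets, and 22 (50.0%) were higher by 1 or more, against 2.52%. In CLH 30 of the 44 (68.2%) were higher than in CLL, against 41.4% of all kept probe sets. There 15 (34.1%) were higher by 1 or more, against 3.03%. Their median change in CL was 1.00 for CLM and 0.43 for CLH, beside -0.03 and -0.10 over all kept probe sets. With 1 array per code the difference between CV and CL in these changes was not tested.

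The 53 probe sets higher on CVM and CVH lay more often lower in CLM than in CLL, with 42 (79.2%) on that side, against 53.5% of all, and 15 (28.3%) lower by 1 or more, against 2.61%. In CLH 33 (62.3%) were lower, near the 58.5% of all kept probe sets, although 12 (22.6%) were lower by 1 or more, against 4.97%. With the spike-in change taken off in both CV and CL, the probe sets were sorted anew, which gave 22 higher and 150 lower in CV. Of those 22, 16 (72.7%) were lower in CLM, against 83.0% of all, and 15 (68.2%) in CLH, against 80.7%. These shares were no higher than those of all probe sets. Of those 150, 98 (65.3%) were higher in CLM, against 17.0% of all. In CLH 61 (40.7%) of the 150 were higher, against 19.3% of all, so that there fewer lay the other way than did not. The probe sets that stood apart on CVH alone had smaller median changes in CL: -0.05 in CLM and -0.06 in CLH for the 111 higher, and -0.09 and -0.27 for the 86 lower. In CLH 8 (7.21%) of the 111 were higher by 1 or more, against 3.03% of all kept probe sets, and 13 (15.1%) of the 86 were lower by 1 or more, against 4.97%. Of the 32 that were lower on CVM alone, 6 (18.8%) were higher in CLM by 1 or more, against 2.52%, with medians of 0.44 in CLM and -0.02 in CLH. The 17 that were higher on CVM alone had medians of -0.28 in CLM and -0.26 in CLH.

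Several named genes, picked out after their values were seen, lay opposite ways in CV and CL. AT3G15450 had 430.5 in CLM and 200.2 in CLH, against 17.2 in CLL, and PORB had 1470.0 and 925.7, against 306.6 in CLL. LTI30 had 545.1 and 677.8, against 77.3 in CLL, and EXPA8 had 596.4 and 457.3, against 168.5 in CLL. In these 4 genes L was the highest ending in CV and the lowest in CL. AT4G32340, AT1G49500 and AT1G78830 did the same, with changes in CL from 1.01 to 1.85. APL3 lay the other way, with 51.2 and 55.4, against 107.0 in CLL, and LHCB4.3 had 514.6 and 247.5, against 1103.1 in CLL. Not every gene did so: SAG29 was above L in both CV and CL (40.4 and 33.4, against 26.1 in CLL), SKU5 was level in CL (37.6 and 30.2, against 35.8), and ARL and IAGLU were highest at H in both CV and CL (ARL 59.4 in CLM and 145.2 in CLH, against 55.8 in CLL, and IAGLU 180.8 and 408.0, against 182.0).

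**Figure D5:**
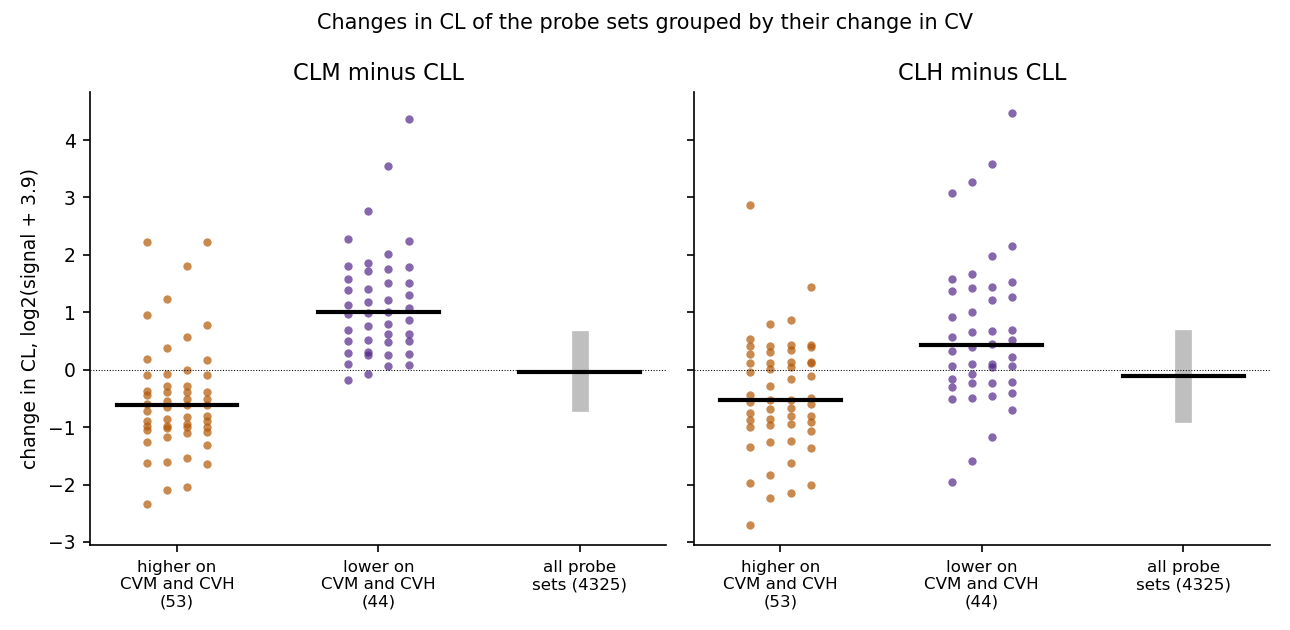
Changes from CLL in CLM (left) and CLH (right), as log2(signal + 3.9), of the 53 probe sets higher and the 44 lower than CVL on both CVM and CVH. Points are probe sets, black bars are medians, and the grey bar spans the 10th to 90th percentile of all 4325 kept probe sets. In CLM the median is -0.62 for the first set and 1.00 for the second, on either side of all probe sets (-0.03).

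How far a change can be read from 1 probe set was seen in 77 genes with at least 2 kept probe sets. Their changes differed by a median of 0.30 for M and 0.21 for H. Of the 4 genes past 1 for M by the brightest probe set, the second had the same sign in all 4 and passed 1 in 1. For H there were 6 such genes, with the same sign in all 6 and past 1 in 3. The 6 included AT2G43590, whose H changes were -2.74 and -0.10. AT2G18100, whose second probe set went the other way, was not counted because that probe set was too dim to be kept. Both probe sets of a gene were read on the same array, so they say nothing of the spread between plants. Of the 24 leading genes 4 were measured by probe sets of the kind that may match several similar transcripts, among them APL3, PORB and LTI30.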

How the data were processed

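The values are intensity signals, 1 column per array, as deposited by the authors on a linear scale. The 2% trimmed mean was 99.99 on each CV array, so they had been scaled to a common level. The software and its version are not given in the sources used here. For each array the values were turned into log2(signal + 3.9), an offset equal to the 20th percentile of all deposited values, and subtracted between arrays. Control probe sets (50) and probe sets with a mean under 20 over CVM, CVH and CVL (3922) were left out. With 1 array per code no test was made; a size of 1 on the log2 scale is a description. The number of arrays limits the precision.

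Gene names came from the annotation of the platform, updated by gene identifier through the TAIR10.1 RefSeq table: 3864 probe sets were listed, 3794 with 1 gene, of which 3784 matched, and 70 with several genes. No gene was listed for the other 4433, controls included. Where a gene had several probe sets, the brightest was used.

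Named genes were the 12 per direction with the same sign on CVM and CVH whose smaller change was largest, the 6 per direction farthest out on CVH alone and on CVM alone, the 5 per direction farthest apart between CVH and CVM, and up to 4 members of each group with the largest mean size among those of 1 sign. The genes at the limit of 1 were shown for that reason. The arrays, the groups of genes and the comparisons were chosen with earlier results of these data known. The 22 groups were written from annotation names once the probe table had been opened, because the lists planned by pattern had found few genes and some wrong ones.

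Alternatives were offsets of 1 and 16, no filter, a mean of 50 or more, quantile normalization, median centring, 1 probe set per gene and, chosen after seeing the data, scaling to the spike-ins. The counting step was tested on simulated data with known changes, which says nothing of the spread between arrays. A planned count of promoter motifs was not run, as no promoter sequence was used here. Python 3.11.15, pandas 2.3.3, numpy 2.4.6 and matplotlib 3.10.9 were used.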

Additional observations from a re-analysis of the deposited data

Results flagged for a closer look

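In 8 named genes CVM and CVH both differed from CVL by 1 or more one way while CLM and CLH both differed from CLL by 1 or more the other way. Other named genes did so by less than 1 in at least 1 of the 4 changes. The changes in CV share the CVL array and those in CL share the CLL array. The difference between CV and CL was not tested because each code had 1 array. The H change in CV, beside the H change in CL, was -3.24 and 3.27 for AT3G15450, -3.27 and 1.42 for EXPA8, -2.09 and 1.58 for PORB, and -1.22 and 3.07 for LTI30. It was -1.54 and 1.01 for AT4G32340, -1.90 and 1.37 for AT1G49500, and -1.26 and 1.22 for AT1G78830. LHCB4.3 had the opposite order, with 1.56 in CV and -2.14 in CL. The 3-prime to 5-prime ratio of the glyceraldehyde 3-phosphate dehydrogenase control was 3.39 on CVM, 5.50 on CVH and 3.20 on CVL, and 2.81 on CLM, 6.22 on CLH and 3.76 on CLL. That of the ubiquitin control was 3.1 on CVM, 2.3 on CVH and 2.5 on CVL, and 2.4 on CLM, 3.2 on CLH and 2.7 on CLL. The part of RNA integrity in these changes was not tested. These genes were picked out of the named genes for this pattern after their values were seen.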

How the results depend on the processing

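No paired analysis was possible because each code had 1 array and no replicate, and for the same reason no array could be left out. Counts of probe sets with a size of 1 or more moved by over 1.5 times with the offset, the filter and the unit counted. For CVM against CVL (204) they were 128 with an offset of 16, 755 with no filter, 122 with a mean of 50 or more, 69 per named gene and 308 scaled to the spike-ins. For CVH against CVL (429) they were 272, 1164, 240, 145 and 763 in the same settings. For CVH against CVM (386) they were 205, 1190, 190 and 158. For the same way on both arrays (97) they were 63, 282, 62, 31 and 172, for CVH alone (197) 111, 562, 107, 70 and 321, and for CVM alone (49) 30, 253, 28 and 22. The 1 probe set past 1 in opposite directions became 4 with an offset of 1, 7 with no filter, and 0 with an offset of 16, a mean of 50 or more, quantile normalization, the spike-in scaling or per gene. Fewer probe sets were counted with a higher filter or per gene by construction. Scaled to the spike-ins, 150 probe sets were lower on both CV arrays, and 40.7% of them were higher in CLH than in CLL, against 19.3% of all. On the values as deposited 44 were lower on both, and these shares were 68.2% and 41.4%. The cause was not tested. All 24 leading genes had the same 2 signs under every setting that held them. They were chosen for large changes of 1 sign, so this was nearly fixed in advance. A change of offset or filter cannot turn a sign. With an offset of 16 the size was still 1 or more on both arrays in 6 of the 12 higher genes. It was so in 9 of the 12 lower genes. With the spike-in scaling these numbers were 7 and 12. Signals near the offset limit the sizes of dim probe sets, and 7 kept probe sets on CVH and 2 on CVL were at or below it.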
